A study of Homo sapiens with 4 samples.

Results

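Glycolysis and tricarboxylic acid (TCA) cycle genes are described here in MHCC-97H, an established human liver cancer line (hepatocellular carcinoma) known for metastasising readily in mice. The 42 members are the rows of the deposited expression table whose symbol stands on a given list of enzymes. All 42 were found, among 33478 genes in the table. They comprise 18 glycolytic genes, 9 genes at the entry of pyruvate into mitochondria and 15 genes of the TCA cycle. RNA was sequenced from 4 libraries, 2 from cells with a control short hairpin RNA (shRNA) and 2 from cells with an shRNA against UCK2, the uridine-cytidine kinase of pyrimidine salvage. All 4 titles name MHCC-97H, but the description of control replicate 2 has MHCC-98H and that of UCK2 shRNA replicate 2 has UCK3. No other treatment or time is given, and the letter B in both UCK2 shRNA titles is not explained. Nothing in the labels says that the replicates were separate cultures, and p-values here rest on the spread between libraries, which may be technical.

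Glycolysis splits glucose into pyruvate in the cytosol, and lactate dehydrogenase turns pyruvate into lactate to regenerate NAD+. Pyruvate that enters mitochondria is turned into acetyl-CoA by the pyruvate dehydrogenase complex or into oxaloacetate by pyruvate carboxylase, and the TCA cycle oxidises acetyl-CoA. Many steps are catalysed by isozymes from separate genes. Adult hepatocytes are known for the liver form of pyruvate kinase, whereas hepatomas are known for hexokinase 2, aldolase A and the muscle-type pyruvate kinase gene. The values are TPM, a length-corrected measure of transcript abundance, so genes can be compared within a library. Values are given in the order of control replicates 1 and 2, then UCK2 shRNA replicates 1 and 2.

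Some facts of the libraries bear on every result. UCK2 itself was 136 and 93.6 TPM with the control hairpin, 121 and 67.8 TPM with that labelled UCK2, so the groups overlapped and the target does not separate them; groups are named by their labels. The rows of the table summed to 14.9% to 15% below the fixed TPM total in the controls and 32.3% to 35.7% below it in the libraries labelled UCK2 shRNA, and what lies outside the rows was not analysed here. The median log2 difference of the 14038 genes tested was -0.22, and -0.01 after median-ratio scaling, which divides each library by the median of its gene ratios. Differences are therefore given both ways, and shares within a step, which no scaling of a library can alter, are used for the isozymes. The 8 hepatocyte lineage markers summed to 125 to 193 TPM, with ALB at 29.5, 25.8, 20.1 and 18.6 TPM. Their levels were uneven: APOH was highest at 46.5 to 67.9 TPM, while TTR was 4.12 to 5.52 TPM and APOA1 0.25 to 2.32 TPM. Of the epithelial markers, KRT8 was 1792 to 3114 TPM and KRT18 461 to 913 TPM. CDH1 was 4.01 to 7.14 TPM and EPCAM at most 0.427 TPM. Fibroblast markers summed to at most 2.28 TPM and retina markers, read because the extraction text names retinas, to at most 2.76 TPM. The endothelial and leukocyte sums (21.2 to 25.8 and 44.1 to 54.9 TPM) came almost wholly from PECAM1 and CD68. CDH5 was listed at 0 in 3 libraries and CD3E in all 4, and the part of such cells in any result was not tested.

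The upstream sequences of 5 members are shown first because they belong to the isozyme choices and to the members at the ends of the range of differences: HK2 at the bottom of the levels, LDHA and LDHB as a pair expressed together, GAPDH and PCK2 with the lowest and the highest log2 difference. Each is the 250 bases before the gene's start in RefSeq (GRCh38.p14), 5′ to 3′, and capitals mark ACGTG on either strand, the core letters shared by hypoxia response elements and many E-boxes.

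HK2, chr2:74833877-74834126, plus strand: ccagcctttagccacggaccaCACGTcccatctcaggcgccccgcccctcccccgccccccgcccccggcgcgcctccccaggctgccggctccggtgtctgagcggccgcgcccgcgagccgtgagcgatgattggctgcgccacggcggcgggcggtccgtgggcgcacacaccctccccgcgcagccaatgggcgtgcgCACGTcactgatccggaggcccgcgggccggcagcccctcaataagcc
LDHA, chr11:18394313-18394562, plus strand: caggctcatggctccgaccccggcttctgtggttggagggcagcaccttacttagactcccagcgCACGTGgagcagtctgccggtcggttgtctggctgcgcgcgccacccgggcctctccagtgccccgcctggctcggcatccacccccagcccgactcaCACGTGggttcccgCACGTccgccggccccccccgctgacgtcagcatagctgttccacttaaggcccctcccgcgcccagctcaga
LDHB, chr12:21657843-21658092, minus strand: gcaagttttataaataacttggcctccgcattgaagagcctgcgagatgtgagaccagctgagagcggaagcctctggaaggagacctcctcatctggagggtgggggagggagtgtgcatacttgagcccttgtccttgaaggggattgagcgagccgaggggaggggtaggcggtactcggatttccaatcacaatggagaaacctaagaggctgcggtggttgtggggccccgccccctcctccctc
GAPDH, chr12:6535014-6535263, plus strand: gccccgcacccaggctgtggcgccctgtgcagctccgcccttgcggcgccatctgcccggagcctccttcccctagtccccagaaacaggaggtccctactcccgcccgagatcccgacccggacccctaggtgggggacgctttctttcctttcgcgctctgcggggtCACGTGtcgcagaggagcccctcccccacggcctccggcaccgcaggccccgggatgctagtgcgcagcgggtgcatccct
PCK2, chr14:24094061-24094310, plus strand: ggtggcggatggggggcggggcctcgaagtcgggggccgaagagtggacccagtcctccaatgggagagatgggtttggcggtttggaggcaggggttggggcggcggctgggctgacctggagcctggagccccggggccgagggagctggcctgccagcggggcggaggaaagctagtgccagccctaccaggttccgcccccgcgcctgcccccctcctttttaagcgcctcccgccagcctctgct

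Promoters were matched for 40 members, and OGDH and PDP1 were not matched. Counting both strands, so that the palindrome CACGTG counts on each, the LDHA stretch held 5 matches, 4 of them in 2 copies of CACGTG. HK2 held 2 matches, GAPDH 2 in 1 CACGTG, and LDHB and PCK2 none. In the full 300 base window, which runs 50 bases past the start, 14 of 40 members (35%) held ACGTG, against 21.4% of 35116 promoters and 27.0% of the 17668 promoters with at least 14 CpG dinucleotides, the median of all. Among glycolytic genes it was 8 of 18. The members had a median of 25 CpG dinucleotides, and ACGTG itself holds a CpG, so neither background is matched to them. A match is a run of letters and not evidence of binding, and each gene has only 1 start in this table, so the start used in these cells may lie elsewhere.

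Hexokinase transcripts in these cells came from HK1 and HKDC1, with HK2 close to 0. HK1, the hexokinase of most tissues (chromosome 10, 69269984 to 69401882, hg38), measured 70.01 and 84.04 TPM with the control hairpin, 61.4 and 60.1 TPM with that labelled UCK2. HK2, the inducible hexokinase typical of tumours (chromosome 2, 74833981 to 74893359), measured 0.0669 and 0.0475 TPM with the control hairpin, 0.0564 and 0.0693 TPM with that labelled UCK2, and was the one member below the mean of 1 TPM needed for testing. The ratio of HK1 to HK2 was 1047, 1769, 1088 and 867. The noncoding gene RP11-259N19.1, which overlaps HK2 on the opposite strand, was also under 0.1 TPM. HKDC1, a further hexokinase gene that lies beside HK1 on chromosome 10 and is not a member, measured 84.2 and 73.5 TPM with the control hairpin, 66.99 and 81.3 TPM with that labelled UCK2. The share of HK1 in the summed hexokinase TPM was 45.3% and 53.3% with the control hairpin, 47.6% and 42.4% with that labelled UCK2, and HKDC1 held nearly all the rest. Control replicate 2 was the only library with more HK1 than HKDC1. HK3, the hexokinase of blood cells, was at most 0.261 TPM. TPM keeps no read counts, so no counting limit can be put on levels this low.

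**Figure D1:**
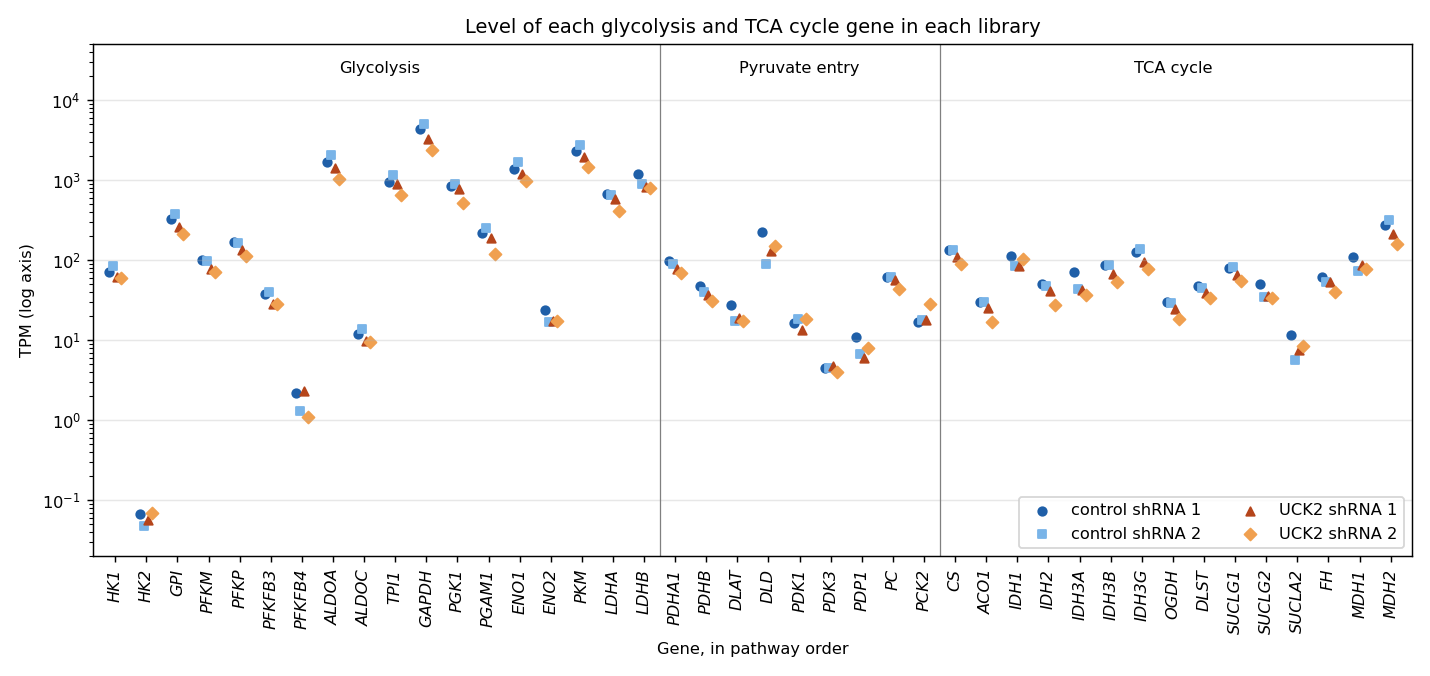
TPM of the 42 genes on a log axis, 1 point per library, in pathway order. HK2 lies below 0.1 TPM in every library, while GAPDH lies between 2392 and 5012 TPM.

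The preparatory steps of glycolysis were carried at moderate levels. GPI, which turns glucose-6-phosphate into fructose-6-phosphate, measured 330.1 and 381 TPM with the control hairpin, 262 and 212 TPM with that labelled UCK2. Phosphofructokinase, the committed step, was shared by the platelet-type gene PFKP and the muscle-type gene PFKM. PFKP measured 167 and 165 TPM with the control hairpin, 133 and 112 TPM with that labelled UCK2. PFKM measured 100.04 and 97.5 TPM with the control hairpin, 76.95 and 71.02 TPM with that labelled UCK2. The PFKP share of the pair was 62.6% and 62.9% with the control hairpin, 63.4% and 61.1% with that labelled UCK2, so the pair kept nearly the same proportion in all 4 libraries. The liver-type gene PFKL was not analysed here, so the share covers only this pair. The level of fructose-2,6-bisphosphate, an activator of phosphofructokinase, is set by the bifunctional PFKFB enzymes. PFKFB3, the form with high kinase activity, measured 37.8 and 39.7 TPM with the control hairpin, 28.4 and 28.4 TPM with that labelled UCK2. PFKFB4, a related form, measured 2.16 and 1.29 TPM with the control hairpin, 2.31 and 1.10 TPM with that labelled UCK2. Levels of PFKFB4 were thus far below those of PFKFB3 in every library. PFKFB2, which is not a member, measured 11.6, 6.51, 8.35 and 9.66 TPM, and PFKFB1, the liver form, at most 0.149 TPM. The PFKFB3 share was 73.1% and 83.5% with the control hairpin, 72.5% and 72.3% with that labelled UCK2, lower in both libraries labelled UCK2 shRNA, though by little against control replicate 1.

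From aldolase on, single genes took almost the whole step. ALDOA, which splits fructose-1,6-bisphosphate, measured 1656 and 2048 TPM with the control hairpin, 1429 and 1032 TPM with that labelled UCK2 and held at least 99.1% of aldolase TPM. ALDOC, the brain-type form, measured 11.8 and 13.8 TPM with the control hairpin, 9.74 and 9.34 TPM with that labelled UCK2. RP11-192H23.4, a gene model overlapping ALDOC on the same strand, averaged 39.8% of its level. TPI1, which interconverts the triose phosphates, measured 952 and 1143 TPM with the control hairpin, 904 and 651 TPM with that labelled UCK2, and SPSB2, overlapping on the opposite strand, averaged 15.5% of its level. GAPDH (chromosome 12, 6533927 to 6538374), which opens the energy-yielding stage, measured 4317 and 5012 TPM with the control hairpin, 3247 and 2392 TPM with that labelled UCK2. It was the 11th or 12th most abundant gene of the table in 3 libraries and the 19th in UCK2 shRNA replicate 2. TPI1, GAPDH and ENO2 lie near one another on chromosome 12, from 6533927 to 6923698.

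PGK1, which makes ATP from 1,3-bisphosphoglycerate, measured 833 and 893 TPM with the control hairpin, 764 and 512 TPM with that labelled UCK2. PGAM1, phosphoglycerate mutase, measured 219 and 249.8 TPM with the control hairpin, 187 and 117 TPM with that labelled UCK2. The muscle mutase gene PGAM2 and the near copy PGAM4 were listed at 0 in all 4 libraries, as was PGK2 in 3. ENO1, the widespread enolase, measured 1367 and 1690.5 TPM with the control hairpin, 1202 and 964 TPM with that labelled UCK2 and held 96.1%, 96.9%, 96.4% and 95.4% of enolase TPM. ENO2, the neuronal form, measured 23.7 and 16.7 TPM with the control hairpin, 17.2 and 17.2 TPM with that labelled UCK2, which was less in each library than the muscle form ENO3, not a member, at 32.00, 36.6, 28.2 and 28.7 TPM. LRRC23, which overlaps ENO2 on the same strand, averaged 43.4% of the ENO2 level. PKM, the pyruvate kinase gene whose splicing gives the PKM1 and PKM2 proteins, measured 2282 and 2771 TPM with the control hairpin, 1966 and 1434 TPM with that labelled UCK2. Values per gene do not separate these splice forms. PKLR, the liver and red cell pyruvate kinase, was at most 0.342 TPM, so PKM held at least 99.98% of the step.

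Lactate dehydrogenase was the step with a pair of abundant isozymes, and LDHB exceeded LDHA in every library. LDHB (chromosome 12, 21635342 to 21757857), the heart-type subunit, measured 1176 and 880.4 TPM with the control hairpin, 822 and 789.7 TPM with that labelled UCK2. LDHA (chromosome 11, 18394388 to 18408425), the muscle-type subunit associated with lactate production, measured 659.6 and 658 TPM with the control hairpin, 573 and 411 TPM with that labelled UCK2. The ratio of LDHB to LDHA was 1.78, 1.34, 1.43 and 1.92. The groups overlapped, since control replicate 1 lay above UCK2 shRNA replicate 1, and the replicates numbered 2 gave the lowest and the highest ratio.

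**Figure D2:**
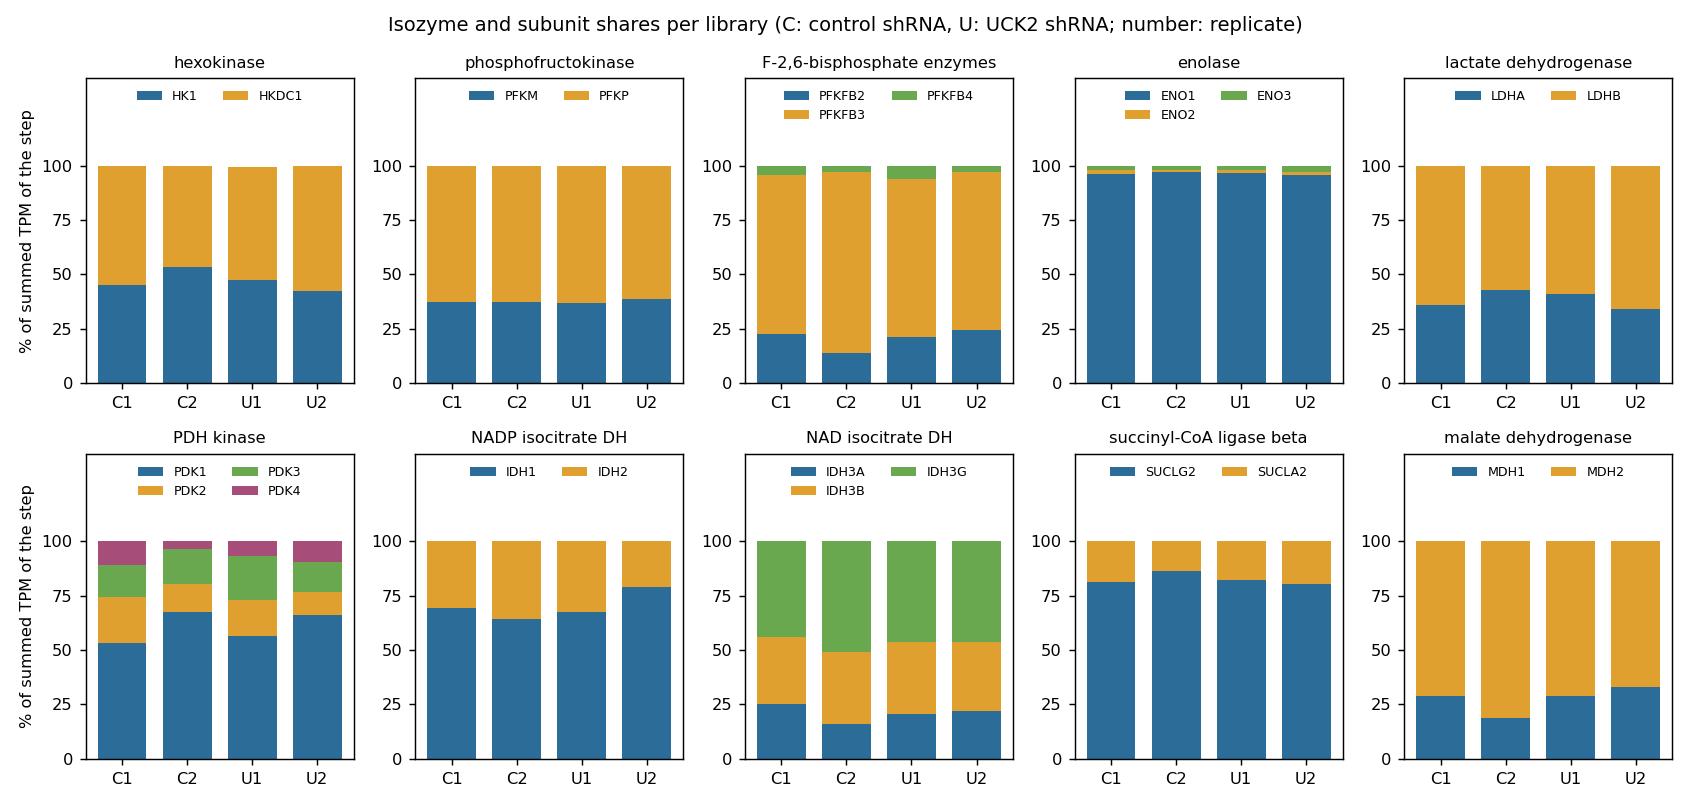
Share of each gene in the summed TPM of its step, in percent, for 10 steps and the 4 libraries; genes under 0.5% in every library are not drawn. HK1 and HKDC1 divide the hexokinase step, PFKP stays between 61.1% and 63.4%, and IDH2 has its smallest share, 20.8%, in UCK2 shRNA replicate 2.

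Among genes of adult hepatocyte glucose metabolism, PCK1, G6PC and SLC2A2 were near 0. PCK1 was listed at 0 in 3 libraries and at 0.0106 TPM in the fourth, G6PC was at most 0.169 TPM and SLC2A2 at most 0.068 TPM. FBP1, the gluconeogenic fructose bisphosphatase, measured 5.75, 4.05, 3.89 and 3.69 TPM.

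The subunits of the pyruvate dehydrogenase complex stood at unequal levels. PDHA1, the E1 alpha subunit, measured 97.5 and 89.2 TPM with the control hairpin, 77.03 and 69.7 TPM with that labelled UCK2. PDHB, its E1 beta partner, measured 48.1 and 39.3 TPM with the control hairpin, 36.8 and 30.8 TPM with that labelled UCK2. The PDHA1 to PDHB ratio stayed at 2.03, 2.27, 2.09 and 2.26. DLAT, the E2 core, measured 27.7 and 17.5 TPM with the control hairpin, 19.1 and 17.4 TPM with that labelled UCK2. DLD, the E3 subunit shared with the oxoglutarate dehydrogenase complex, measured 222 and 88.8 TPM with the control hairpin, 128 and 149 TPM with that labelled UCK2. DLD had the widest gap of the 41 tested members between the controls, a log2 ratio of 1.32 for control replicate 1 over replicate 2. LAMB1, which overlaps DLD on the opposite strand, was likewise highest in control replicate 1, at 125.2 TPM, against 44.0, 69.1 and 64.2 TPM in the rest. The sources used here give no strand setting for the counting, and the part of LAMB1 in the DLD values was not tested.

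The kinases that switch the complex off and the phosphatases that switch it on had low levels. PDK1, a kinase induced by hypoxia, measured 16.2 and 18.3 TPM with the control hairpin, 13.4 and 18.6 TPM with that labelled UCK2. PDK3, a further kinase of the family, measured 4.55 and 4.46 TPM with the control hairpin, 4.77 and 3.94 TPM with that labelled UCK2. PDK1 held 53.2%, 67.3%, 56.5% and 66.03% of the summed TPM of the 4 kinase genes, and the shares were higher in the replicates numbered 2 of both groups. PDP1, the catalytic phosphatase subunit, measured 10.8 and 6.76 TPM with the control hairpin, 5.90 and 7.89 TPM with that labelled UCK2, and PDP2, not a member, 11.4, 6.17, 7.21 and 6.33 TPM. The PDP1 share of the pair, 48.7%, 52.3%, 45.02% and 55.5%, differed between groups by less than its spread. PC, pyruvate carboxylase, measured 60.7 and 61.7 TPM with the control hairpin, 56.7 and 43.3 TPM with that labelled UCK2.

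PCK2 was the one member tested with a log2 difference above 0. It encodes the mitochondrial PEP carboxykinase (chromosome 14, 24094053 to 24110598), which makes phosphoenolpyruvate from oxaloacetate and is known as a target of the stress factor ATF4. PCK2 measured 16.9 and 18.01 TPM with the control hairpin, 18.1 and 28.2 TPM with that labelled UCK2. Both libraries labelled UCK2 shRNA lay above both controls, but replicate 1 was nearly level with control replicate 2. The log2 difference of PCK2 was 0.35 ± 0.25 (SE, n = 2 each; 95% interval -0.24 to 0.95; limma adjusted p = 0.521) and 0.58 after scaling (limma adjusted p = 0.915). Without UCK2 shRNA replicate 2 it was 0.05. The ratio of PCK2 to PC, both fed by mitochondrial pyruvate or oxaloacetate, was 0.279, 0.292, 0.319 and 0.65.

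In the TCA cycle, CS, which condenses acetyl-CoA and oxaloacetate, measured 133 and 134 TPM with the control hairpin, 109 and 88.1 TPM with that labelled UCK2. A second protein-coding gene model, RP11-977G19.10, overlaps CS on the same strand at 54.1 to 89.8 TPM, so reads of this region may be divided between them. ACO1, the cytosolic aconitase that doubles as an iron regulatory protein, measured 29.7 and 29.97 TPM with the control hairpin, 24.99 and 17.1 TPM with that labelled UCK2. The NADP-dependent isocitrate dehydrogenases showed a division between compartments. IDH1, the cytosolic and peroxisomal form, measured 112 and 85.3 TPM with the control hairpin, 84.8 and 104 TPM with that labelled UCK2. IDH2, the mitochondrial form, measured 49.7 and 47.3 TPM with the control hairpin, 41.04 and 27.4 TPM with that labelled UCK2. The IDH1 to IDH2 ratio was 2.26, 1.80, 2.07 and 3.81. UCK2 shRNA replicate 2 stood apart from the other 3 libraries, and UCK2 shRNA replicate 1 lay between the controls.

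The NAD-dependent enzyme needs the catalytic subunit IDH3A with IDH3B and IDH3G. IDH3A measured 71.8 and 42.9 TPM with the control hairpin, 42.6 and 37.04 TPM with that labelled UCK2. IDH3B measured 85.7 and 87.5 TPM with the control hairpin, 67.6 and 53.2 TPM with that labelled UCK2. IDH3G measured 125 and 136 TPM with the control hairpin, 94.4 and 77.6 TPM with that labelled UCK2. IDH3A was the least abundant of these subunits in every library. The IDH3B to IDH3G ratio was steady at 0.688, 0.644, 0.716 and 0.686, while IDH3A to IDH3B ran 0.838, 0.491, 0.63 and 0.696, highest in control replicate 1 and lowest in control replicate 2. IDH3G overlaps SSR4, a more abundant gene on the opposite strand at 390 to 797 TPM, so its level and its order among the subunits are uncertain without strand information.

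OGDH, the E1 subunit of oxoglutarate dehydrogenase, measured 29.5 and 29.5 TPM with the control hairpin, 24.2 and 18.6 TPM with that labelled UCK2, and held at least 96.7% over OGDHL. DLST, the E2 subunit, measured 46.9 and 44.2 TPM with the control hairpin, 38.8 and 33.9 TPM with that labelled UCK2. SUCLG1, the common alpha subunit of succinyl-CoA ligase, measured 78.6 and 82.8 TPM with the control hairpin, 65.5 and 55.3 TPM with that labelled UCK2. Its beta partners are SUCLG2, which gives the GTP-forming enzyme, and SUCLA2, which gives the ATP-forming one. SUCLG2 measured 49.7 and 35.02 TPM with the control hairpin, 35.3 and 33.9 TPM with that labelled UCK2. SUCLA2 measured 11.5 and 5.60 TPM with the control hairpin, 7.54 and 8.35 TPM with that labelled UCK2. The GTP-type gene thus held 81.2%, 86.2%, 82.4% and 80.2% of the beta subunit TPM.

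FH, fumarase, measured 61.8 and 52.7 TPM with the control hairpin, 53.9 and 39.7 TPM with that labelled UCK2. MDH2, the mitochondrial malate dehydrogenase, measured 270.2 and 314 TPM with the control hairpin, 212 and 158 TPM with that labelled UCK2. MDH1, its cytosolic counterpart in the malate-aspartate shuttle, measured 109.8 and 72.1 TPM with the control hairpin, 85.8 and 77.2 TPM with that labelled UCK2. The MDH2 to MDH1 ratio of 2.46, 4.36, 2.47 and 2.04 was highest in control replicate 2 and lowest in UCK2 shRNA replicate 2, and control replicate 1 and UCK2 shRNA replicate 1 were nearly equal. Of 24 ratios computed between members, 9 had control replicate 2 and UCK2 shRNA replicate 2 as their ends, those of MDH2 to MDH1, IDH1 to IDH2 and LDHB to LDHA among them. Another 7 had the controls as their ends, 3 the libraries labelled UCK2 shRNA, 0 the replicates numbered 1, and 5 other pairs of libraries. OGDH to DLST was lower in both libraries labelled UCK2 shRNA than in both controls, at 0.63, 0.666, 0.625 and 0.549. GAPDH to HK1 was too, at 61.7, 59.6, 52.9 and 39.8. PCK2 to PC was higher in both, and in the rest of these ratios the groups overlapped. The ratios were picked by hand and some share a gene, and no count of ends or overlaps was made for pairs of other genes. An exact permutation test of 2 libraries against 2 cannot give a p below 0.33, so none was made on shares or ratios.

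No member passed the test between the groups, with or without a block by replicate number. Of 41 members tested with limma on log2(TPM + 1), 40 (97.6%) had a log2 difference below 0, against 74.7% of all 14038 genes and 87.6% of the 7562 genes averaging at least 10 TPM. Of these members 0 had an adjusted p under 0.05, where 0% of all 14038 genes were called lower and 0% higher. A block that pairs opposite replicate numbers, added after seeing the data and supported by no label, called 10 of 41 members (24.4%), all lower, against 4.53% of all genes lower and 0.648% higher. Without adjustment, 14 of 41 members (34.1%) were lower at a p under 0.05 and 0 higher, against 14% and 1.38% of all genes tested. The median log2 difference of the 41 members was -0.41, against -0.22 for all genes tested and -0.30 for the 7562 genes averaging at least 10 TPM. By part, it was -0.44 for 17 glycolytic genes, -0.26 for the 9 genes of pyruvate entry and -0.44 for the 15 TCA cycle genes. In 28 members both libraries labelled UCK2 shRNA lay below both controls, which is 68.3%, against 44.4% of all genes and 62% of genes averaging at least 10 TPM. In PCK2 alone both lay above, as in 5.46% of all genes.

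Much of this difference was shared with the rest of the table. After scaling, 32 of 41 members were below 0 (78%), against 50.8% of all genes and 63.3% of those averaging at least 10 TPM. The scaled median of the members was -0.18, with -0.20 for glycolysis, -0.03 for pyruvate entry and -0.21 for the TCA cycle, beside -0.07 for genes averaging at least 10 TPM. Only 4 members then had both libraries labelled UCK2 shRNA below both controls, 9.76% against 15.5% of all genes and 20.3% of those averaging at least 10 TPM. These were GAPDH, PFKM, PFKFB3 and IDH3G. PCK2 alone lay above in both, where 16% of all genes did. At an unadjusted p under 0.05, 0 members were lower and 1 of 41 (2.44%), PCK2, was higher, against 1.42% and 3.97% of all genes. With scaling 0 members passed the adjusted threshold, while 0.0641% of all genes were called higher and 0% lower. The direction turned from lower to higher with scaling in 8 members: PFKFB4, ENO2, DLD, PDK1, PDK3, IDH1, SUCLA2 and MDH1.

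**Figure D3:**
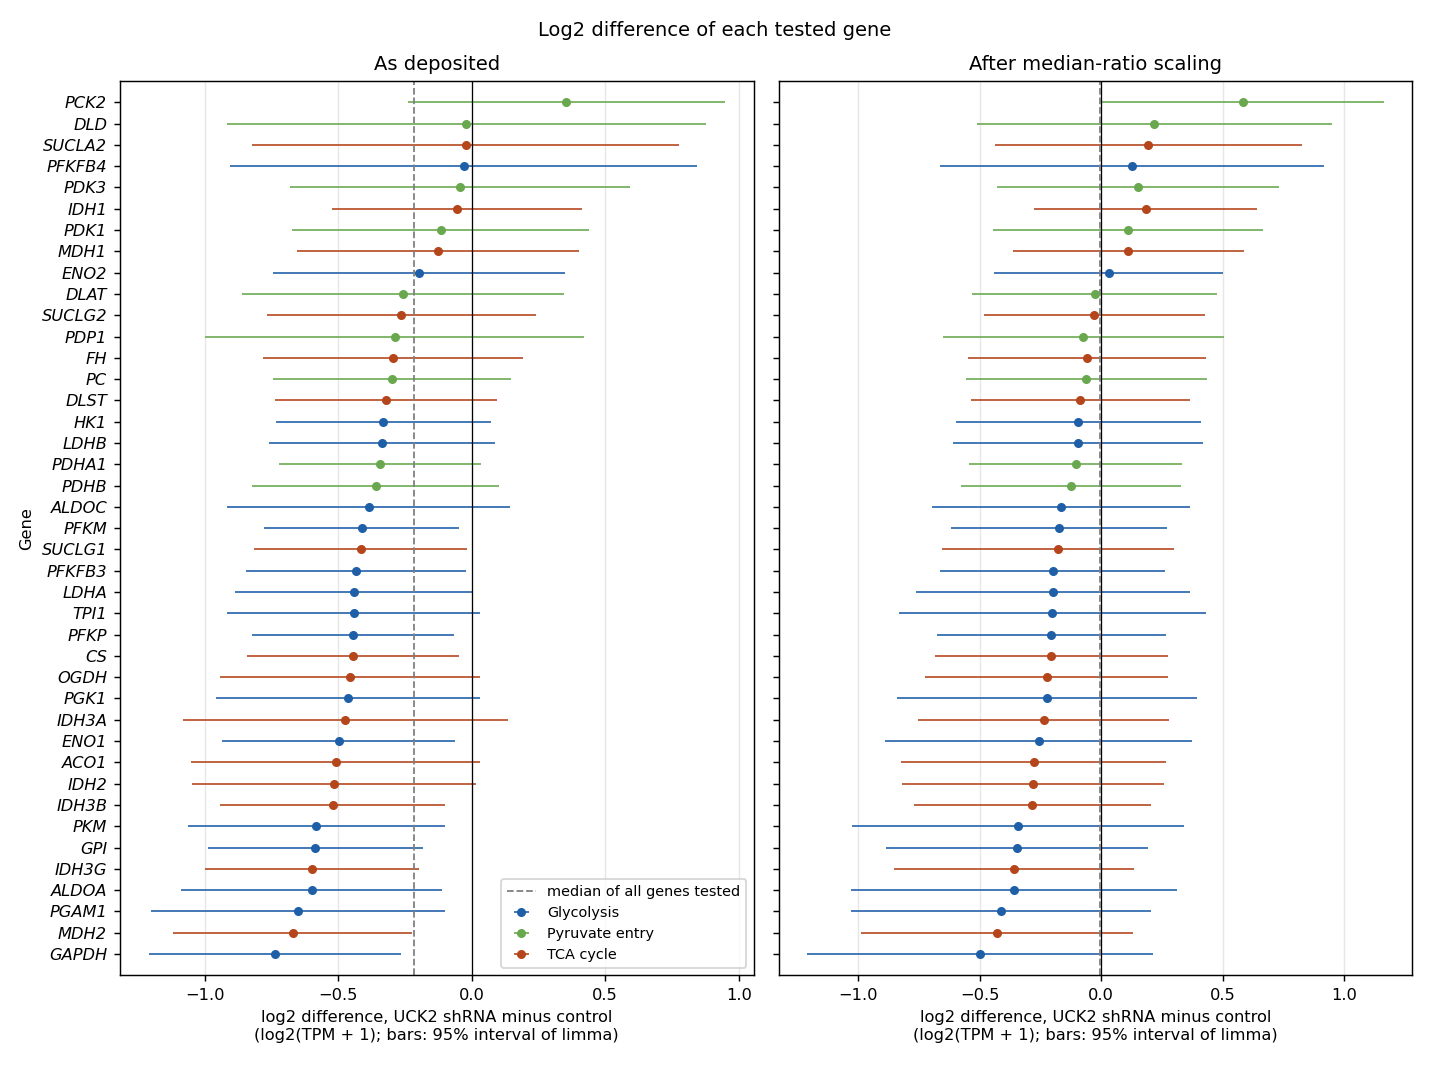
Log2 difference of each of the 41 genes tested, UCK2 shRNA minus control, with 95% intervals of limma, as deposited (left) and after median-ratio scaling (right); the dashed line is the median of all genes tested. Most points lie left of the dashed line in both panels, and PCK2 is the highest in both.

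The members farthest from the median of all genes, apart from PCK2, were abundant genes on the lower side. GAPDH averaged 4664 ± 491 TPM over the controls and 2819.8 ± 605 TPM over those labelled UCK2 shRNA (SD, n = 2 each), with a log2 difference of -0.74 ± 0.20 (SE, limma adjusted p = 0.294). The scaled difference of GAPDH was -0.50. MDH2 averaged 292 ± 31.1 TPM over the controls and 185 ± 38.4 TPM over those labelled UCK2 shRNA, with a log2 difference of -0.67 ± 0.19 and -0.43 after scaling. The values of the other 5 were close together. The log2 difference was -0.65 ± 0.23 for PGAM1, -0.60 ± 0.21 for ALDOA, -0.60 ± 0.17 for IDH3G, -0.59 ± 0.17 for GPI and -0.58 ± 0.20 for PKM, and after scaling -0.41, -0.36, -0.36, -0.35 and -0.34. All 7 of these genes had a limma adjusted p of 0.294, and 0.955 after scaling. GENCODE release 29 names 62 pseudogenes after GAPDH and 13 after PGAM1. It names 2 to 6 each after ALDOA, TPI1, ENO1, PKM, LDHA, LDHB, SUCLG2 and SUCLA2. Reads that fit a copy make the levels of these genes uncertain.

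After scaling, the difference between the groups rested on the libraries numbered 2, which are also those whose descriptions differ from their titles. Whether that difference in labels bears on these values was not tested. Summed over the 18 glycolytic genes, scaled TPM was 11977 and 16092 in the controls and 12728 and 9497 in the libraries labelled UCK2 shRNA, so UCK2 shRNA replicate 1 lay between the controls. As a share of all TPM in the table, the glycolytic genes took 1.67% and 1.90% in the controls and 1.73% and 1.37% in the libraries labelled UCK2 shRNA. The TCA cycle genes took 0.149% and 0.141% against 0.146% and 0.129%, and the pyruvate entry genes 0.0593% and 0.0404% against 0.0532% and 0.0574%. The ratio of summed glycolytic to summed TCA cycle TPM was 11.2, 13.5, 11.8 and 10.6. In scaled TPM, control replicate 2 was the highest library for 24 of 41 members and UCK2 shRNA replicate 2 the lowest for 28. The same counts were not made over all genes, so whether they are particular to the members is unknown. The scaled median of all members was -0.04 when UCK2 shRNA replicate 2 was left out and -0.08 when control replicate 2 was, against -0.26 when UCK2 shRNA replicate 1 was and -0.32 when control replicate 1 was.

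**Figure D4:**
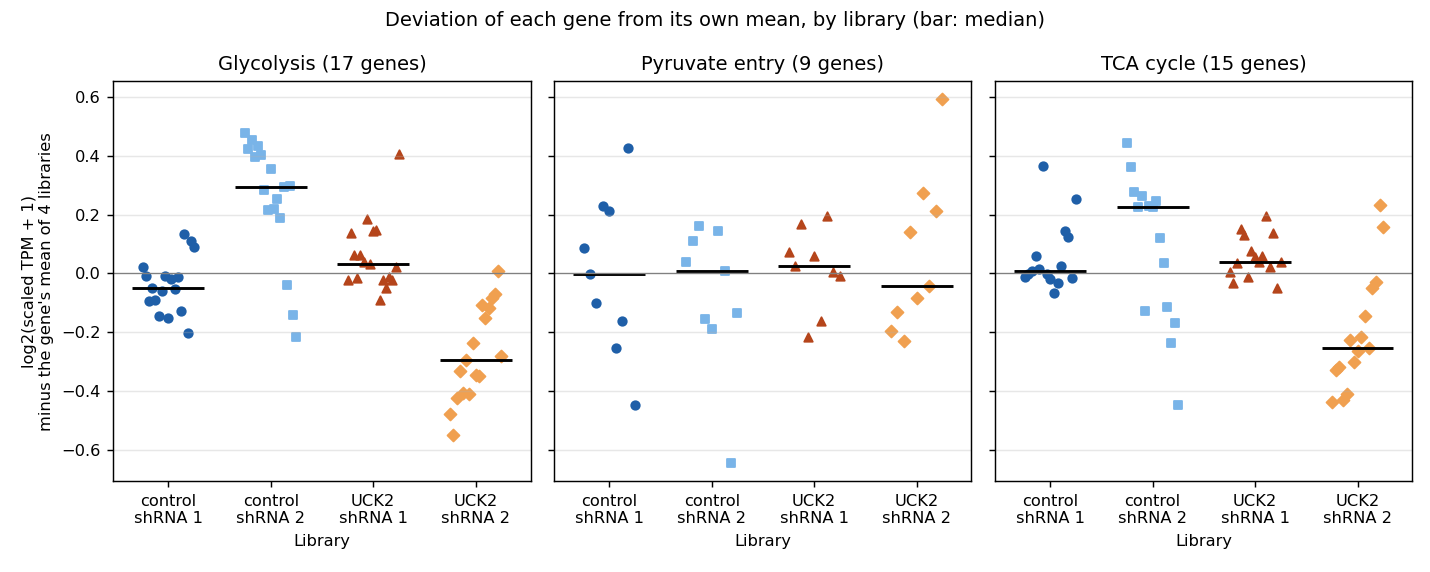
Deviation of each gene from its own mean over the 4 libraries, on log2(scaled TPM + 1), by library and part of the pathway; bars are medians. Glycolytic genes have medians of -0.05 and 0.29 in the controls and 0.03 and -0.30 in the libraries labelled UCK2 shRNA, so the controls differ from each other more than control replicate 1 differs from UCK2 shRNA replicate 1.

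The controls also split the members along base composition. In the deposited values 21 members were higher in control replicate 1 and 20 in control replicate 2. The transcripts of the former had a median of 44.5% G and C bases, those of the latter 55.2%, read from the longest basic coding transcript in GENCODE release 29. DLD (39.3% G and C) and SUCLA2 (42.01%) were highest in control replicate 1 relative to replicate 2, by log2 ratios of 1.32 and 1.04, while ALDOA (60.8%) and ENO1 (58.9%) had log2 ratios of -0.31 each. PFKFB4 and ENO2 were members rich in G and C that were nonetheless higher in control replicate 1. Across the 41 members the correlation of G and C content with the log2 ratio of the controls was -0.59 (Pearson) and -0.60 (Spearman), and across 11509 protein-coding genes it was -0.49 and -0.57. For the log2 ratio of UCK2 shRNA replicate 2 to replicate 1, the members gave -0.33 and -0.36 and the protein-coding genes -0.22 and -0.31. These are descriptions across genes measured in the same libraries, and genes are not independent replicates. The 5 glycolytic genes given with fitted values above had 52.8% to 60.8% G and C, and the part of base composition in the group difference was not tested. Genes of the same step can differ in G and C content, as IDH1 (43.1%) and IDH2 (55.9%) did, while PDHA1 (46.6%) and PDHB (44.5%) were close. A difference between libraries along base composition would not cancel in shares or ratios of unlike genes, and its part there was not tested.

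**Figure D5:**
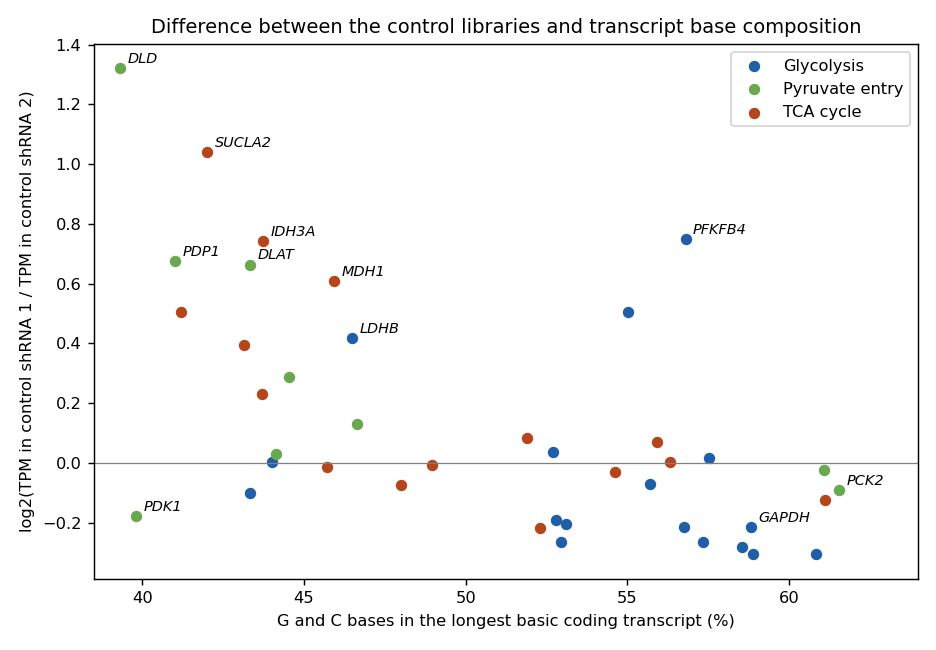
Log2 ratio of TPM in control shRNA replicate 1 to replicate 2 against the percentage of G and C bases in the longest basic coding transcript, 1 point per gene (41 genes). Most genes poor in G and C, with DLD at 1.32, lie above 0, and most genes above 50% lie below 0.

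Other genes of these pathways did not pass the test either, and their counts lay near those of genes averaging at least 10 TPM. Of 63 genes on a wider list of non-member isozymes, transporters and linked enzymes, 58 were in the table and 39 were tested. None passed the limma test with or without scaling, at the background shares given above; at an unadjusted p under 0.05, 7 of 39 (17.9%) were lower and 0 higher as deposited, against 14% of all genes lower, and 1 lower and 0 higher after scaling. As deposited 36 of 39 (92.3%) had a log2 difference below 0, with a median of -0.32, beside 87.6% and -0.30 for genes averaging at least 10 TPM. After scaling 28 of 39 (71.8%) did, with a median of -0.09, beside 63.3% and -0.07. SLC16A3, the lactate exporter MCT4, measured 157 and 202 TPM with the control hairpin, 125 and 135 TPM with that labelled UCK2. SDHC, a membrane anchor of succinate dehydrogenase, measured 140.2 and 173 TPM with the control hairpin, 132 and 122 TPM with that labelled UCK2. ACLY, which makes cytosolic acetyl-CoA from citrate, measured 118 and 122 TPM with the control hairpin, 97.1 and 78.9 TPM with that labelled UCK2. SLC16A3, SDHC and ACLY were highest in control replicate 2, as GAPDH was. SLC2A1, the glucose transporter GLUT1, named after its value was seen, had the lowest log2 difference of this list. It measured 70.2 and 76.96 TPM with the control hairpin, 44.4 and 38.7 TPM with that labelled UCK2, with a log2 difference of -0.81 ± 0.17 (SE, limma adjusted p = 0.294) and -0.58 after scaling (limma adjusted p = 0.844). Both libraries labelled UCK2 shRNA lay below both controls for SLC2A1.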

How the data were processed

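The deposited table holds TPM, computed by the authors, for 2 control and 2 UCK2 shRNA libraries, grouped by title. Per the submitters' processing notes, the tools were DESeq, edgeR, HTSeq and TopHat2 2.0.14 and the build was hg38, with no role given for each; those sources give no strand setting. TPM keeps no sequencing depth, so depth is unknown and no counting interval is given.

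limma 3.58.1 under R 4.3.3 compared the groups for every gene averaging 1 TPM or more, on log2(TPM + 1) (linear fit, moderated with trend, two-sided, Benjamini-Hochberg over 14038 genes, threshold 0.05), which understates differences of low genes. The fit was also run on simulated data with independent noise for each gene and no shift of a whole library. That run therefore cannot tell how the fit handles such shifts in these libraries. Shares are percentages of the summed TPM of all measured genes of a step, which cover the members and fixed non-member isozymes; TIGAR and PFKL were not analysed here, and some items are not reported here. Promoters are RefSeq's (GRCh38.p14). Named genes were all members, those farthest from the table's median with fitted values, UCK2, some adult liver isozymes and the most abundant genes of a wider list. Members and lists were chosen with earlier results of these data known. Alternatives were other scalings, pseudocounts, filters and variance models, a replicate block and leaving out each library. The replicate numbers do not pair the libraries by any label. Figures used matplotlib 3.10.9.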

Additional observations from a re-analysis of the deposited data

How the results depend on the processing

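Depth is unknown for TPM, so what it limits cannot be given. Among all genes, 0 were called in either direction as deposited, and this held with a pseudocount of 0.1 or 5, no filter or a minimum of 5 TPM, the fit without trend and either UCK2 shRNA library left out. Genes called higher numbered 9 with median-ratio scaling and 8 with quantile normalization. With the replicate block, 29 were higher and 10 lower, and with block and scaling 98 and 23. Leaving out 1 library gave 0 to 242 higher and 0 to 108 lower, the most without control replicate 1 (242 and 108; 32 and 21 without control replicate 2). After scaling, 23 were higher without control replicate 1, and 17 higher and 1 lower without control replicate 2. Same-numbered libraries deviated oppositely across genes (correlation -0.21), so the crossed block, chosen after seeing the data like all leave-outs after scaling, was run and called 91 higher and 636 lower, with 10 of 41 members (24.4%) among the lower. In the other settings run, 0 members passed.

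The median of the members was -0.41 as deposited, -0.18 with median-ratio scaling (with or without the replicate block, -0.175), -0.0528 with quantile normalization, -0.0653 when rescaled without the 50 most abundant genes, and -0.488 to -0.275 leaving out 1 library, the value nearest 0 being that without UCK2 shRNA replicate 2. After scaling it was -0.0825 without control replicate 2, -0.26 without UCK2 shRNA replicate 1, -0.0351 without UCK2 shRNA replicate 2 and -0.317 without control replicate 1. Members below 0 numbered 40 as deposited, 23 when rescaled without the 50 most abundant genes and 23 with scaling and without UCK2 shRNA replicate 2. The median of the pyruvate entry genes turned above 0 with quantile normalization (0.034) and without the 50 most abundant genes (0.0786). The cause was not tested.

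Differences that turned above 0 with median-ratio scaling were those of PFKFB4 (0.126), ENO2 (0.0316), DLD (0.218), PDK1 (0.109), PDK3 (0.153), IDH1 (0.182), SUCLA2 (0.194) and MDH1 (0.111). With quantile normalization they were HK1 (0.0489), ENO2 (0.0267), LDHB (0.0688), PDHA1 (0.034), DLD (0.357), PDK1 (0.113), PDK3 (0.0133), PC (0.036), IDH1 (0.339), SUCLG2 (0.0294), SUCLA2 (0.0944), FH (0.0267) and MDH1 (0.249). Rescaled without the 50 most abundant genes they were HK1 (0.0152), PFKFB4 (0.187), ENO2 (0.136), LDHB (0.0153), PDHA1 (0.0039), DLAT (0.0786), DLD (0.328), PDK1 (0.215), PDK3 (0.244), PDP1 (0.0228), PC (0.0468), IDH1 (0.292), DLST (0.0216), SUCLG2 (0.0795), SUCLA2 (0.29), FH (0.0492) and MDH1 (0.221); that setting moved the median of all genes to 0.09. Leaving out 1 library gave -0.357 to 0.298 for PFKFB4, -0.438 to 0.0429 for ENO2, -0.573 to 0.0601 for DLAT, -0.677 to 0.634 for DLD, -0.341 to 0.107 for PDK1, -0.154 to 0.0677 for PDK3, -0.591 to 0.013 for PDP1, -0.252 to 0.139 for IDH1, -0.485 to 0.438 for SUCLA2 and -0.427 to 0.173 for MDH1. For isozyme shares, leaving out 1 library cannot move a difference beyond its pooled SD with 2 libraries per group, so that setting decides nothing. With shares taken over members only, 24 differences moved by less than their spread, though some steps hold members alone and could not move. Log2 ratios of the 2 most abundant isozymes were compared by sign only, and 12 kept their direction. The PDK1 difference did not: above 0 as a share, it was -0.07 as a log2 ratio to PDK3.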
